A study of Arabidopsis thaliana with 4 samples.

Results

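Rubisco, the enzyme that fixes CO2 in the Calvin-Benson cycle, is built in Arabidopsis thaliana from a plastid-encoded large subunit and small subunits encoded by a nuclear gene family. The genes described here are the 4 small-subunit genes, RBCS1A, RBCS1B, RBCS2B and RBCS3B, and RCA, the gene of Rubisco activase. They were chosen by locus identifier, 5 of the 33977 genes in the count tables, and all 5 were tested. The question was whether their transcripts differed between plants that overexpress PPD3, a protein of the PsbP-domain family (group PPD3_OE), and wild-type plants of the same Columbia-0 background (group Col-0). Each group held 2 individual plants, raised on a peat mix at 22 °C under days of 16 h and taken as they bolted, and each plant gave 1 library of polyadenylated RNA. No plant age, no transgene promoter and no number of independent transgenic lines is given in the sources used here. One label names the rosette and another the entire plant, so stem and bud tissue may be included.

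Rubisco joins CO2 to ribulose bisphosphate in the chloroplast stroma. The large subunit carries the active site, and the small subunit, made in the cytosol and imported, caps the assembled complex. Transcripts of small-subunit genes are among the most abundant in leaves and respond to light, through promoter elements known as the G-box and the I-box, and to leaf age and sugar. Rubisco activase is an ATP-driven remodelling protein that frees the active site of bound sugar phosphates.

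The small-subunit genes are close copies, and how well a read can be placed among them bears on every value below. RBCS1A (AT1G67090) lies alone on chromosome 1 (25048158 to 25049667), and RBCS3B (AT5G38410, 15376988 to 15378642), RBCS2B (AT5G38420, 15380907 to 15382071) and RBCS1B (AT5G38430, 15383167 to 15385320) lie side by side on chromosome 5. RCA (AT2G39730) lies on chromosome 2 (16570746 to 16573692). All are on the minus strand, in coordinates of the RefSeq annotation of TAIR10.1. RBCS1A, with a coding sequence of 543 bases, matched the chromosome 5 copies, with 546 bases each, at 89.9% to 90.1% of aligned coding bases. The chromosome 5 copies matched each other at 96.7% to 97.3%. The longest identical run was one of 233 coding bases (304 to 536) between RBCS1B and RBCS3B, and RBCS2B differs from that run at 3 bases and RBCS1A at 14. The stretch of spliced coding sequence below, bases 304 to 393 counted from the start codon, is shown because it opens that run. Capitals mark the 7 columns at which the 4 copies are not all the same.
RBCS1A: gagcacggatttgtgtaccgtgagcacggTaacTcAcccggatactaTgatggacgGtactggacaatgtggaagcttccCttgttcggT
RBCS1B: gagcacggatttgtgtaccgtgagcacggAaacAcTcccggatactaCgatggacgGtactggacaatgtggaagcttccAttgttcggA
RBCS2B: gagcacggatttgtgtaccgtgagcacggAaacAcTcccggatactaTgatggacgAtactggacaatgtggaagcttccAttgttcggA
RBCS3B: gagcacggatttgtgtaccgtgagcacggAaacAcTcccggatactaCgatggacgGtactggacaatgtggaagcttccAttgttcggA

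Reads were 150 bases long, so identity over 150 bases decides whether an error-free read fits more than 1 copy. Of the 397 windows of 150 bases in the coding sequence of RBCS1B, 84 (21.2%) were found unchanged in RBCS3B, and the same 84 windows are 21.2% of those of RBCS3B. Over the annotated transcripts, untranslated ends included, they were 12.2% of windows in RBCS1B and 7.92% in RBCS3B. RBCS1A, RBCS2B and RCA had 0 windows in common with any other annotated gene. The nearest copy differed from RBCS1A by at least 6 bases in every window, and from RBCS2B by at least 1. In 22.7% of the coding windows of RBCS2B the nearest copy was within 2 mismatches, against 42.6% in RBCS1B, 46.6% in RBCS3B and none in RBCS1A. Counts of RBCS1B and RBCS3B are therefore uncertain against each other, those of RBCS2B less so, and those of RBCS1A and RCA were not affected by exact sharing. Which gene a read with several alignments came from is not recorded in the counts, and such reads were left out of the gene rows.

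The region before the start codon was examined for 2 motifs of light-responsive promoters, the G-box (CACGTG) and the I-box (GATAAG), on both strands within 300 bases. RBCS2B is shown first because its matches lie outside every annotated transcript (chr5:15382156-15382221, minus strand, TAIR10.1), with I-box, G-box and I-box in capitals in that order.
RBCS2B: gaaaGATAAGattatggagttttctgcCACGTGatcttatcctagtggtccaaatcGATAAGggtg
The G-box with its flanks is shown for the other members that hold one, RBCS1A (chr1:25049491-25049520), RBCS3B (chr5:15378506-15378535) and RCA (chr2:16573579-16573608), and the 2 overlapping I-boxes for RBCS1B (chr5:15385304-15385333), all on the minus strand, with the motifs in capitals.
RBCS1A: ggaattatcttcCACGTGgcattattccag
RBCS3B: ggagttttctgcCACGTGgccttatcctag
RCA: ataaacatattcCACGTGgaccaatcaaaa
RBCS1B: aaaagaaaGATAAGATAAGggtgtcaacac
Among 27443 genes searched in the same way, 6.23% held a G-box, 15.4% held an I-box on either strand and 1.06% held both. RBCS1A, RBCS2B and RBCS3B held both, with 17 or 18 bases between the first I-box and the G-box and 23 bases from there to the second I-box. An I-box, a G-box and another I-box on the same strand, 5 to 30 bases apart, were found before 3 of the 27443 genes, and these were RBCS1A, RBCS2B and RBCS3B. The limits of 5 and 30 bases were set after the spacing in these genes was seen, and the copies share descent. RBCS2B and RBCS3B also held an I-box on the other strand with 2 bases between it and the G-box. RCA held a G-box and no I-box, and RBCS1B held I-boxes and no G-box. In RBCS1A, RBCS3B and RCA the matches fall inside the longest annotated 5′ leader, and those of RBCS1B partly so. A match describes letters in the sequence and says nothing of a factor bound there.

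**Figure D1:**
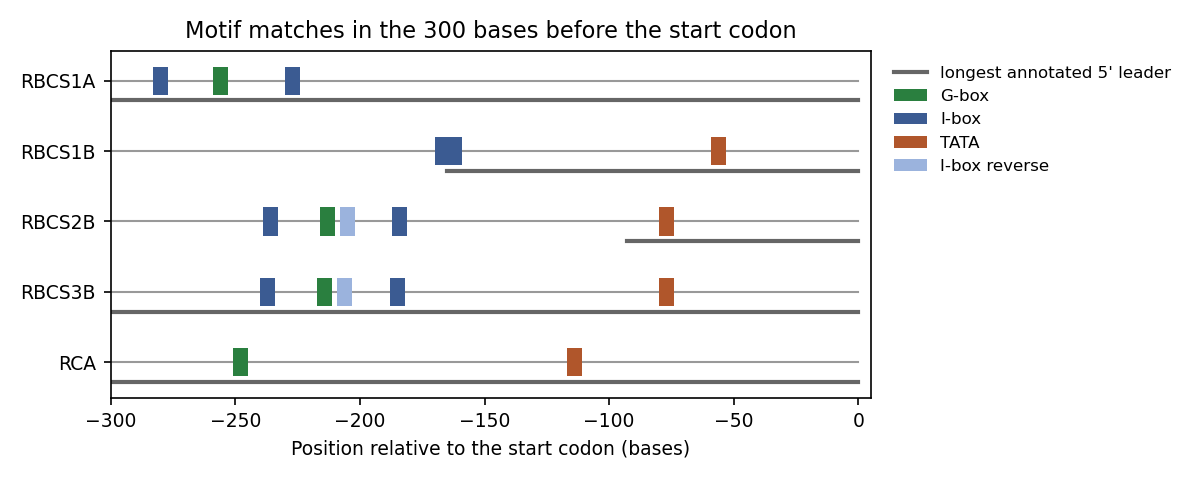
Motif matches by distance from the start codon (x axis, bases) in each gene (y axis), with the longest annotated 5′ leader as a grey line below and matches to TATAAA also drawn. RBCS1A, RBCS2B and RBCS3B have a G-box between 2 I-boxes, RCA has a G-box alone and RBCS1B has 2 overlapping I-boxes.

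Gene counts summed to between 33771093 and 40727172 per library. PPD3 itself, taken as AT1G76450, had 3800 and 2460 counts in the Col-0 plants and 113628 and 111903 in the PPD3_OE plants, a 35.2-fold difference in CPM with an edgeR adjusted p of 0.0623. The row of the large subunit, rbcL (ATCG00490), was listed at 0 in every library, as were all 285 rows of plastid and mitochondrial genes, so the large subunit was not measured. Reads with several alignments were 4.60% and 4.18% of aligned reads in the Col-0 plants and 5.16% and 5.61% in the PPD3_OE plants. Their part in the results on the copies was not tested. Of the markers of green leaf tissue LHCB1.1, CA1 and PSBO1, all 3 were detected, with a summed level of 6948 and 5633 CPM (the usual per-library rate of counts, with TMM scaling between libraries) in Col-0 plants 1 and 2 and of 7855 and 8492 CPM in PPD3_OE plants 1 and 2. CA1, a carbonic anhydrase, stood at 1901 and 812 CPM in Col-0 and at 3075.3 and 3026 CPM in PPD3_OE plants, without overlap (edgeR adjusted p = 0.162), and LHCB1.1 and PSBO1 overlapped between the genotypes. The part of leaf tissue content in the results on the 5 genes was not tested. The root hair markers EXPA7, EXPA18 and LRX1 were at 0 in every library. With 2 plants per group, p-values measure the spread between these single plants. In bulk tissue, fewer cells of a type and less RNA per cell cannot be told apart.

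All 4 small-subunit transcripts stood higher in both PPD3_OE plants than in both Col-0 plants. None passed edgeR's adjusted p of 0.05, and the Col-0 plants differed widely from each other. RBCS1A, the main small-subunit gene of Arabidopsis leaves, stood at 9697 and 6589 CPM in Col-0 plants 1 and 2 and at 11802 and 14207 CPM in PPD3_OE plants 1 and 2. The groups did not overlap, but the gap between the nearest plants was smaller than that between the Col-0 plants. Its mean was 8143 ± 2198 CPM in Col-0 and 13004 ± 1700 in PPD3_OE (SD, n = 2), a 1.60-fold difference (log2 fold change 0.68 ± 0.35 SE, edgeR adjusted p = 0.251).

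RBCS2B was the small-subunit transcript that differed most. It stood at 1203 and 682 CPM in Col-0 plants 1 and 2 and at 2496 and 2962 CPM in PPD3_OE plants 1 and 2. The lower PPD3_OE plant was well above the higher Col-0 plant. The mean was 942 ± 368 CPM in Col-0 and 2729 ± 330 CPM in PPD3_OE (SD, n = 2), 2.90-fold higher, with a log2 fold change of 1.53 ± 0.35 (SE, edgeR adjusted p = 0.0775).

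RBCS3B, the most abundant of the chromosome 5 copies, stood at 2681 and 1520 CPM in Col-0 plants 1 and 2. In PPD3_OE plants 1 and 2 it stood at 4191 and 5104 CPM, again with no overlap. The means were 2101 ± 821 and 4647 ± 646 CPM (SD, n = 2), and the log2 fold change was 1.15 ± 0.36 (SE, edgeR adjusted p = 0.117). RBCS1B, the copy with the longest stretch in common with RBCS3B, stood at 1196 and 633 CPM in Col-0 plants and at 1527 and 2368 CPM in PPD3_OE plants 1 and 2. This was the small-subunit transcript with the widest spread in both groups, in proportion to its level, and its log2 fold change was 1.09 ± 0.42 (SE, edgeR adjusted p = 0.157). As in RBCS1A, the gap between its nearest plants of the 2 groups was smaller than that between the Col-0 plants.

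RCA, which acts on the assembled enzyme, showed no such separation. It stood at 4305 and 3184 CPM in Col-0 plants 1 and 2 and at 4205 and 4581 CPM in PPD3_OE plants 1 and 2. Col-0 plant 1 lay above PPD3_OE plant 1, so the groups overlapped. The mean was 3745 ± 793 CPM in Col-0 and 4393 ± 266 CPM in PPD3_OE (SD, n = 2), a 1.17-fold difference (log2 fold change 0.23 ± 0.26 SE, edgeR adjusted p = 0.572). In the annotation the neighbouring gene AT2G39725 overlaps RCA by 3 bases.

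**Figure D2:**
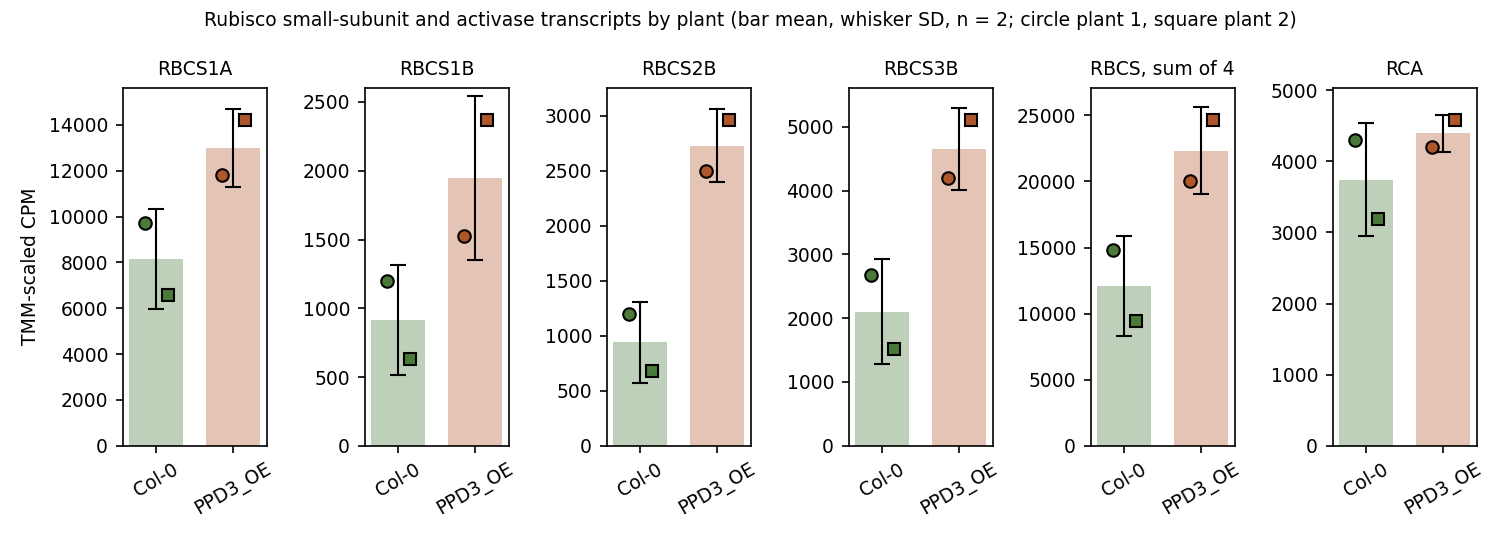
Level of each transcript and of the 4 small-subunit transcripts summed (y axis, TMM-scaled CPM, linear from 0, a scale for each panel) in Col-0 and PPD3_OE plants, with the bar at the mean, the whisker at the SD (n = 2), a circle for plant 1 and a square for plant 2. In RCA alone the groups overlap, with Col-0 plant 1 at 4305 CPM and PPD3_OE plant 1 at 4205 CPM.

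Read against the background of all genes, 4 of the 5 members had both PPD3_OE plants above both Col-0 plants, which was so for 33.9% of the 19919 genes tested. Their median log2 fold change was 1.09, against 0.01 over all genes tested. At an adjusted p of 0.05 edgeR called 0 of the 5, with 0.00502% of all genes called in either direction. At an unadjusted p under 0.05 in edgeR it was 2 of 5 upward, RBCS2B and RBCS3B, where 16.1% of all genes passed upward. DESeq2 called 3 of 5 upward, RBCS1B (adjusted p = 0.0311), RBCS2B (7.34e-05) and RBCS3B (0.00536), where it called 8.41% of genes upward. RBCS1A (0.0591) and RCA (0.535) did not pass in DESeq2, and limma with voom weights called 0 members. The call on the chromosome 5 copies thus depended on the tool, while the DESeq2 fold changes of these copies, 1.08 to 1.53 on the log2 scale, lay close to edgeR's.

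The size of these differences depended on single plants. Col-0 plant 1 stood above plant 2 by 1.47-fold in RBCS1A, 1.89-fold in RBCS1B, 1.76-fold in RBCS2B, 1.76-fold in RBCS3B and 1.35-fold in RCA. Without Col-0 plant 2 the log2 fold changes were 0.40 for RBCS1A, 0.68 for RBCS1B, 1.16 for RBCS2B and 0.78 for RBCS3B, and 0.01 for RCA. Without Col-0 plant 1 they were 0.95, 1.59, 1.97, 1.58 and 0.44 in the same order. The PPD3_OE plants mattered most for RBCS1B, at 1.38 without plant 1 and 0.74 without plant 2. For each of the 5 genes, leaving out either PPD3_OE plant gave a value between those without Col-0 plant 1 and without Col-0 plant 2. RBCS2B had the largest fold change of the 5 whichever of the 4 plants was left out, between 1.16 and 1.97, and RCA the smallest, between 0.01 and 0.44.

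**Figure D3:**
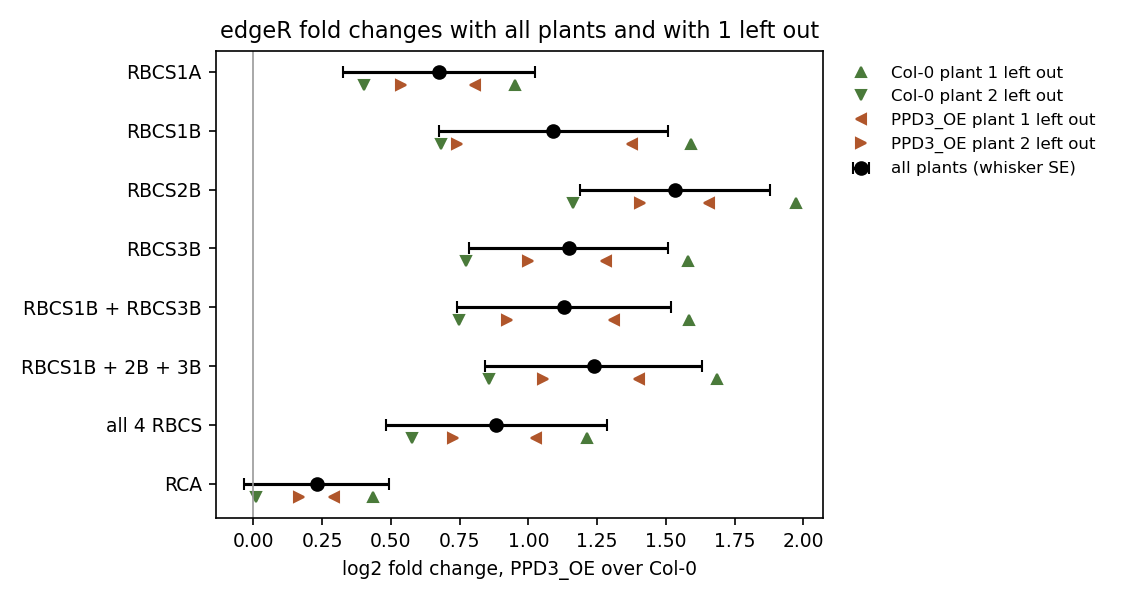
log2 fold change of PPD3_OE over Col-0 (x axis) for each transcript and for summed copies (y axis), with all plants (circle, whisker SE) and with each plant left out in turn (triangles). The values without Col-0 plant 2 are the lowest and those without Col-0 plant 1 the highest for each transcript, and RCA without Col-0 plant 2 lies at 0.01.

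Summing the copies removes the question of which copy a counted read belongs to, but reads with several alignments are missing from the sums too. The 4 small-subunit genes together stood at 14777 and 9424 CPM in Col-0 plants and at 20015 and 24641 CPM in PPD3_OE plants 1 and 2. The groups did not overlap, but the gap between the nearest plants was slightly smaller than that between the Col-0 plants. The means were 12100.1 ± 3785 and 22328 ± 3271 CPM (SD, n = 2), 1.85-fold apart, with a log2 fold change of 0.88 ± 0.40 (SE, edgeR adjusted p = 0.206, DESeq2 adjusted p = 0.0183). Their share of all gene counts was 1.48% and 0.972% in Col-0 plants and 1.97% and 2.43% in PPD3_OE plants 1 and 2. The 3 chromosome 5 copies summed had a log2 fold change of 1.24 ± 0.40 (SE, edgeR adjusted p = 0.120, DESeq2 adjusted p = 0.00325). RBCS1B and RBCS3B summed, the pair with identical read-length windows, had 1.13 ± 0.39 (SE, edgeR adjusted p = 0.134, DESeq2 adjusted p = 0.00955).

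The make-up of the small-subunit transcripts also differed, and this comparison does not depend on scaling between libraries. It does depend on the reads with several alignments, which are missing from the counts. RBCS1B and RBCS3B have read-length windows in common and RBCS1A has none in common with another gene. The share of RBCS1A may therefore be too high and those of RBCS1B and RBCS3B too low, by an amount that was not tested. RBCS1A supplied 65.6% and 69.9% of small-subunit counts in Col-0 plants 1 and 2 and 59.0% and 57.7% in PPD3_OE plants 1 and 2. RBCS2B supplied 8.14% and 7.23% in Col-0 plants and 12.5% and 12.02% in PPD3_OE plants 1 and 2. The share of RBCS1A was thus lower and that of RBCS2B higher in both PPD3_OE plants, with a difference of -9.46 points for RBCS1A (mean 67.8% ± 3.04 against 58.3% ± 0.93, SD, n = 2) and of 4.56 points for RBCS2B (7.69% ± 0.64 against 12.2% ± 0.32, SD, n = 2). RBCS3B supplied 18.1% and 16.1% in Col-0 plants and 20.9% and 20.7% in PPD3_OE plants. RBCS1B overlapped between the groups, at 8.09% and 6.71% in Col-0 plants and 7.63% and 9.61% in PPD3_OE plants. Each of the 3 differences without overlap was larger than the SD within either group. These 3 were picked because they did not overlap in the same plants. With 2 plants per group that choice makes such a result likely, so the comparison with the SD is not a test. The shares of a plant also add up to the whole, so a lower share of RBCS1A requires higher shares elsewhere. The 3 differences are therefore not separate results. An exact permutation test of 2 plants against 2 cannot give a two-sided p below 0.333, so none was used.

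**Figure D4:**
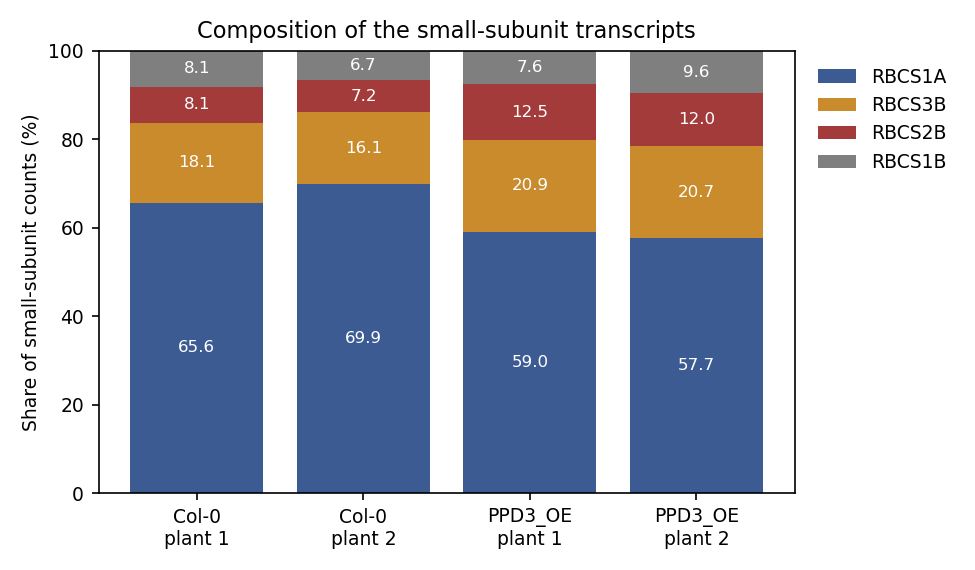
Share of each copy in the summed small-subunit counts (y axis, percent) in each plant (x axis). RBCS1A takes 65.6% and 69.9% in the Col-0 plants against 59.0% and 57.7% in the PPD3_OE plants, and RBCS2B takes 8.14% and 7.23% against 12.5% and 12.02%.

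Ratios between copies compare them in pairs. There were 8.06 and 9.67 counts of RBCS1A for each count of RBCS2B in Col-0 plants 1 and 2, and 4.73 and 4.80 in PPD3_OE plants 1 and 2. Within the chromosome 5 group, RBCS2B over RBCS3B was 0.449 and 0.448 in the Col-0 plants and 0.596 and 0.580 in the PPD3_OE plants, so the plants of a genotype lay close together and the genotypes apart. RBCS1B over RBCS3B did not separate the groups, at 0.446 and 0.416 in Col-0 and 0.364 and 0.464 in PPD3_OE plants 1 and 2. Small-subunit counts over RCA counts were 3.43 and 2.96 in Col-0 plants and 4.76 and 5.38 in PPD3_OE plants, with means of 3.196 ± 0.33 and 5.07 ± 0.44 (SD, n = 2). This last ratio was chosen after the values were seen.

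Levels of different genes were compared per kilobase of coding sequence. Counted reads may also fall on untranslated ends, which differ in length between genes. The transcripts used here had 1268 bases in RBCS1A, 840 in RBCS1B, 935 in RBCS2B, 1210 in RBCS3B and 1977 in RCA. The order may therefore change with the length used, and reads that fit both RBCS1B and RBCS3B were left out. In Col-0 the order was RBCS1A (14997 ± 4048 CPM per kb), RBCS3B (3847 ± 1503), RCA (2628 ± 556), RBCS2B (1725 ± 675) and RBCS1B (1674 ± 729), each a mean with SD over 2 plants. RBCS1A stood apart from the next by more than the sum of both SDs, and the other neighbours in this order did not. In PPD3_OE the order was RBCS1A (23949 ± 3131 CPM per kb), RBCS3B (8512 ± 1183), RBCS2B (4998 ± 604), RBCS1B (3567 ± 1090) and RCA (3083 ± 187). There RBCS1A and RBCS3B each stood apart from the next by more than the sum of both SDs, and the lower neighbours did not. By these means RCA ranked below the small-subunit copies in PPD3_OE and above RBCS2B and RBCS1B in Col-0. By that measure RCA did not stand apart from its neighbours in the order in either genotype. The measure leaves out that genes were measured in the same plants, so it cannot decide a change of rank. Within each plant, RCA per kilobase of coding sequence was above RBCS2B in both Col-0 plants and below it in both PPD3_OE plants. Against RBCS1B, RCA was above in both Col-0 plants and PPD3_OE plant 1, and below in PPD3_OE plant 2. These comparisons were chosen after the values were seen. Over all genes, by CPM not corrected for length, RBCS1A ranked 2 in Col-0 and 1 in PPD3_OE, and RCA ranked 5 in both.

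Genes listed as Rubisco assembly and care factors, chaperonins and co-chaperonins included, were mostly higher in PPD3_OE as well. Of 20 such genes, all tested, 17 had both PPD3_OE plants above both Col-0 plants and 1 had them below, beside 33.9% and 33% of all genes, and the median log2 fold change was 0.67. In edgeR 0 passed, while 12 had an unadjusted p under 0.05 upward and 1 downward (16.1% and 17% of all genes). DESeq2 called 8 upward and 0 downward (8.41% and 9.72% of all genes). CPN60B2, a chaperonin subunit of the folding chamber that receives new large subunits, stood at 95.7 and 67.8 CPM in Col-0 plants and at 232 and 318 CPM in PPD3_OE plants (log2 fold change 1.75 ± 0.26, edgeR adjusted p = 0.0623). CPN10-2, a co-chaperonin, stood at 31.6 and 29.8 CPM in Col-0 and at 48.1 and 48.7 CPM in PPD3_OE plants, close together within each genotype. CPN60A2, another chaperonin subunit of lower abundance, stood at 9.44 and 8.24 CPM and at 16.2 and 21.6 CPM. Chosen after their values were seen, the chaperonin CPN60A1 (1.23 ± 0.23) and co-chaperonin CPN20 (1.07 ± 0.19) had log2 fold changes near those of RBCS1B and RBCS3B and below that of RBCS2B. So had CPN60B1 (1.14 ± 0.25). The Rubisco assembly factors BSD2 (0.71 ± 0.24) and RBCX2 (0.03 ± 0.15), also chosen after their values were seen, had smaller log2 fold changes. RBCX1 was the member with a negative value (-0.31 ± 0.11). Of the list and marker genes named in the text, CPN60B1, CPN60B2, CPN20, RBCX1, AT1G73110, PRK, pdTPI, RPI3, PIF1, CA1, EXPA7, EXPA18, KNOLLE and CDKB2;1 overlap other annotated genes in part, and reads from the overlap cannot be assigned without strand. AT1G73110, which resembles RCA, was at 0.31 ± 0.18.

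The other Calvin-Benson cycle genes give the rest of the pathway. Of 19 tested, 17 had positive fold changes, and the median over all 19 was 0.48. In 13 both PPD3_OE plants lay above both Col-0 plants and in 1 below, beside 33.9% and 33% of all genes. In edgeR 0 passed, with 3 upward and 1 downward at an unadjusted p under 0.05, beside 16.1% and 17% of all genes. DESeq2 called 2 upward and 1 downward, where it called 8.41% of all genes upward and 9.72% downward. Plastid triose-phosphate isomerase (pdTPI) stood at 314 and 278 CPM in Col-0 and at 433 and 486 CPM in PPD3_OE plants, and ribose-5-phosphate isomerase RPI3 at 117 and 70.0 CPM and at 180 and 211 CPM. CP12-3, of a family of small regulators of the cycle, was the lower one, at 11.7 and 13.2 CPM in Col-0 and 6.74 and 4.43 CPM in PPD3_OE. Phosphoribulokinase PRK, which makes Rubisco's sugar substrate and was chosen after its value was seen, overlapped between the groups with a log2 fold change of 0.29 ± 0.29.

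Regulators of light-responsive genes went in both directions. Of 15 tested, 9 had negative and 6 positive fold changes, with a median of -0.39. Both PPD3_OE plants lay below both Col-0 plants in 7 and above them in 3, beside 33% and 33.9% of all genes. In edgeR 0 passed, with 6 downward and 2 upward at an unadjusted p under 0.05, beside 17% and 16.1% of all genes. DESeq2 called 5 downward and 1 upward, where it called 9.72% and 8.41% of all genes. PIF1, a phytochrome-interacting factor that holds back light responses in the dark, stood at 26.8 and 25.5 CPM in Col-0 and at 13.5 and 13.7 CPM in PPD3_OE plants. PIF4, a growth-promoting factor of the same family, stood at 143 and 211 CPM and at 70.3 and 62.5 CPM. GBF2, a bZIP protein that binds G-boxes, stood at 27.4 and 34.3 CPM and at 17.5 and 15.4 CPM. GLK1, an activator of photosynthesis genes and the member DESeq2 called upward, stood at 105.5 and 105.0 CPM in Col-0 and 160 and 190 CPM in PPD3_OE. HY5, a bZIP activator of light responses, overlapped between the groups (log2 fold change 0.07 ± 0.16). GLK1 and HY5 were chosen after their values were seen.

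**Figure D5:**
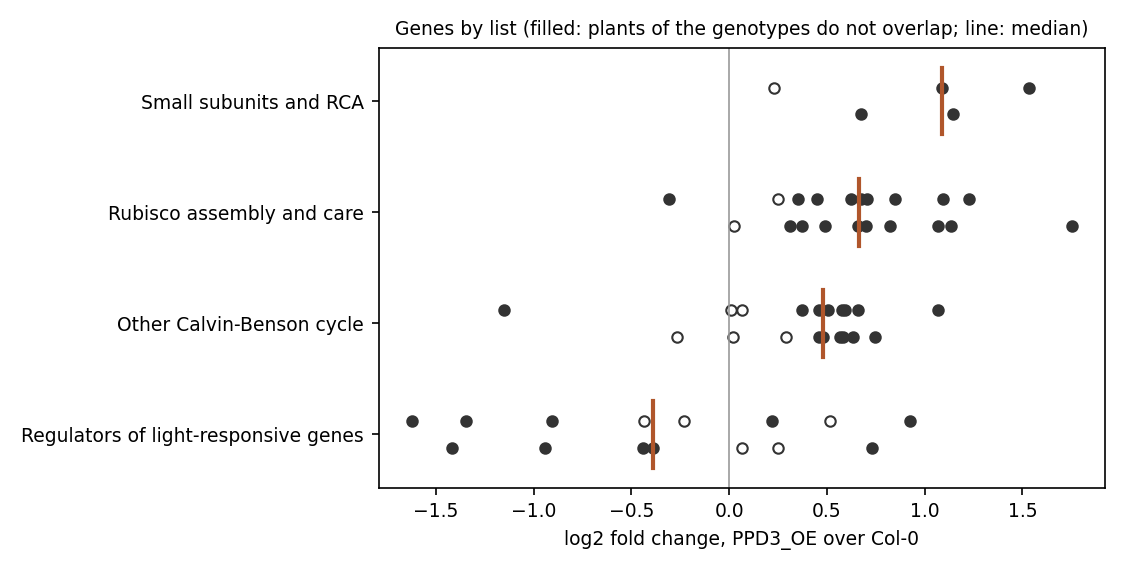
log2 fold change of PPD3_OE over Col-0 (x axis) of each gene in 4 lists (y axis), filled where the plants of the genotypes do not overlap, with the list median as a line. The medians are 1.09 for the small subunits with RCA, 0.67 for Rubisco assembly and care, 0.48 for the other Calvin-Benson cycle genes and -0.39 for the regulators.

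Transcripts with the nearest pattern over the 4 plants were sought among 1360 genes with a symbol and at least 100 CPM on average, by the root mean square difference of centred log2 CPM. For the summed small subunits these were NPQ4 (0.035), also called PSBS, a photosystem II protein of photoprotection, PSRP3/1 (0.040), a plastid ribosomal protein, FIB (0.042), a plastoglobule protein, ATPD (0.043), the delta subunit of chloroplast ATP synthase, and OVA2 (0.051). For RCA they were PSAG (0.009) and PSAL (0.013), subunits of photosystem I, the glutathione reductase GR (0.012), VTC2 (0.014), an enzyme of ascorbate synthesis, and GSTU19 (0.023), a glutathione transferase. PSAL stood at 2639 and 2002 CPM in Col-0 and 2608 and 2845 CPM in PPD3_OE plants, in the order seen for RCA. With 4 plants such likeness describes these libraries only.

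Markers of leaf age differed between the genotypes in the same plants. The senescence markers SAG12, SAG13, SEN1, ORE1 and NAP summed to 185 and 352 CPM in Col-0 plants 1 and 2 and to 15.3 and 10.97 CPM in PPD3_OE plants, and all 4 that were tested were lower without overlap. Within Col-0, plant 2, with the higher senescence sum, was the plant with the lower level of each of the 5 Rubisco genes. SEN1 made up most of that sum in plant 2 (68.7 and 224 CPM in Col-0 plants 1 and 2), ORE1 and NAP were also higher in plant 2, and SAG12 (4.84 and 0.201 CPM) and SAG13 (78.5 and 52.4 CPM) were higher in plant 1. Dividing-cell markers (CYCB1;1, KNOLLE and CDKB2;1) summed to 40.9 and 34.5 CPM in Col-0 and 67.3 and 63.2 CPM in PPD3_OE plants, all 3 without overlap. The 6 flower markers summed to 12.4 and 6.38 CPM in Col-0 and 20.2 and 13.6 CPM in PPD3_OE plants. The sum and 4 of the 6 genes were higher in both PPD3_OE plants without overlap. For these counts of markers, 33.9% of all genes tested were higher without overlap and 33% lower. The part of leaf age or other tissue make-up in the small-subunit differences was not tested.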

How the data were processed

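RNA was sequenced as 150-base single reads from a library made with a kit that does not mark strand, per the labels' protocols. The authors deposited whole-number counts per gene for each plant, not normalized. The submitters' processing notes name the genome build TAIR10 and DESeq2, with no aligner, counting tool or annotation given in the sources used here. Of each table, the last 5 rows name no gene and were left out of library sizes and tests. Reads with several alignments (4.18% to 5.61% of aligned reads), ambiguous reads (3.67% to 4.18%) and reads on no feature (0.713% to 0.941%) are among them.

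Counts were tested with edgeR 4.0.16 (R 4.3.3) by the quasi-likelihood F test, after filterByExpr (count minimum 10, total minimum 15) and TMM scaling, with Benjamini-Hochberg adjustment over 19919 genes and a threshold of 0.05. SEs of log2 fold changes were taken from F, as the absolute fold change over the root of F. The fit had 2 residual degrees of freedom. Alternatives were DESeq2 1.42.0, limma 3.58.1 with voom weights, other scalings and filters, a replicate block and each plant left out. The edgeR step was tested on simulated counts. Sequences and gene positions were read from the TAIR10.1 RefSeq genome and annotation. Where copies have several transcript models, 1 model was used for each gene.

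The members and gene lists were chosen with earlier results of these data known. The genes named are the 5 members, rbcL, the 3 genes of each list with the smallest edgeR p, since none was called, and the 5 genes nearest in pattern to the summed small subunits and to RCA. Other named genes were chosen after their values were seen.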

Additional observations from a re-analysis of the deposited data

Results flagged for a closer look

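Reads with several alignments, which the gene counts leave out, took 5.16% of aligned reads in PPD3_OE plant 1 and 5.61% in PPD3_OE plant 2. Both were above the 4.60% and 4.18% of the Col-0 plants. They were looked at again because the small-subunit copies RBCS1B and RBCS3B have identical read-length windows. Which genes these reads came from was not tested.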

How the results depend on the processing

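The direction of every fold change of the 5 genes and their sums held under the scalings, filters, tests, replicate block and left-out plants that were run, with all plants ranging on the log2 scale over 0.64 to 0.70 for RBCS1A, 1.05 to 1.14 for RBCS1B, 1.497 to 1.59 for RBCS2B, 1.11 to 1.202 for RBCS3B and 0.19 to 0.26 for RCA. With DESeq2 the values passed its threshold for RBCS1B (1.08), RBCS2B (1.53), RBCS3B (1.14), the 4 copies summed (0.88), the chromosome 5 copies summed (1.23) and RBCS1B with RBCS3B summed (1.12), so 3 members were called in place of 0. Over all genes edgeR called 1, against 3681 with DESeq2, 0 with voom weights, 13 with no filter and 0 with at least 5 CPM in 2 libraries; the cause was not tested. With a replicate block edgeR called 0 genes, and RBCS2B was at 1.59 (edgeR adjusted p = 0.164). The numbers only name the plants, and the difference between plants 1 and 2 correlated at -0.36 between the genotypes over 19919 genes. A crossed replicate block, chosen after seeing the data, called 137 genes and 0 members. With each plant left out in turn, edgeR called 0 to 0 genes, and the log2 fold changes ran over 0.40 to 0.95 for RBCS1A, 0.68 to 1.59 for RBCS1B, 1.16 to 1.97 for RBCS2B, 0.78 to 1.58 for RBCS3B, 0.01 to 0.44 for RCA, 0.58 to 1.22 for the 4 copies summed, 0.86 to 1.69 for the chromosome 5 copies and 0.75 to 1.58 for RBCS1B with RBCS3B. The share differences ran over -11.6 to -7.32 points for RBCS1A, 0.224 to 2.21 for RBCS1B, 4.11 to 5.01 for RBCS2B and 2.68 to 4.69 for RBCS3B. Dividing counts by coding length gave share differences of -9.45 points for RBCS1A, 1.22 for RBCS1B, 4.55 for RBCS2B and 3.68 for RBCS3B. Coding lengths are 543 bases in RBCS1A and 546 in the other copies, so this division could hardly move the shares. Transcript lengths, which differ more, were not tried for the shares. The members' counts were 22025 or more in every library, so the spread between 2 plants per group, not depth, limits these comparisons.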
